A study of Mus musculus with 10 samples.

Results

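The transcripts of the mitochondrial genome were followed in testes of mice at postnatal day 21 (P21). They were chosen by name, as all genes whose mouse symbol starts with mt-. This gave 37 of the 55421 genes in the count tables, namely 13 protein-coding genes, 2 ribosomal RNA (rRNA) genes and 22 transfer RNA (tRNA) genes. MOV10 is an RNA helicase that the study examined in retrotransposon control and in testicular gene expression. RNA recovered with MOV10 was sequenced from wild type testes in 4 CLIP-seq libraries (replicates 1, 2, 3 and 5). In CLIP-seq, ultraviolet light links a protein to the RNA it touches, and an antibody, here against MOV10, then recovers both. RNA-seq was made from pairs of testes of 3 wild type mice (replicates 1, 2 and 3) and 3 Mov10-/- mice (replicates 2, 3 and 4), all at P21. Mov10-/- mice carried a global deletion of exons 8 to 14, made from a floxed allele with Actb-Cre, which acts in all cells, on a mixed genetic background, and some Mov10-/- animals are lost before birth, so that the testes came from survivors. The RNA-seq kit selects RNA with a poly(A) tail. No library from a control antibody was used here, so that CLIP-seq was set against wild type RNA-seq alone.

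The mitochondrial genome is a small circle, kept in many copies in every cell and transcribed on both strands into long precursors. These are cut at the tRNAs that lie between the other genes. The products are tRNAs, the rRNAs of the mitochondrial ribosome and mRNAs for subunits of complexes I, III, IV and V of the respiratory chain. Most of the mRNAs, and the rRNAs, receive short poly(A) tails inside the organelle. All other subunits of the respiratory chain, and all proteins that copy, transcribe and translate the mitochondrial genome, are encoded in the nucleus. In the testis, germ cells lean on respiration more and more from the spermatocyte stage on. Old insertions of mitochondrial DNA in the nuclear chromosomes carry near-identical copies of parts of these genes.

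3 pairs of sequences bear on how the mitochondrial reads could be counted. The first pair holds the facing ends of mt-Nd5 and mt-Nd6, both for subunits of complex I, which together took most of the CLIP-seq reads on mitochondrial mRNAs. mt-Nd5 is read from the plus strand (chrM:11742-13565, mm10) and mt-Nd6 from the minus strand (chrM:13552-14070), and the 14 bases that both genes hold are in capitals, each written 5′ to 3′ on its own strand.
mt-Nd5 end: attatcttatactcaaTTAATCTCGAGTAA
mt-Nd6 end: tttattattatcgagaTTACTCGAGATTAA
The second pair shows the edges of sequence shared with a nuclear copy inside mt-Nd4 (bases 862 to 891 of the gene) and mt-Co1 (bases 1052 to 1081). Capitals mark the shared side: the shared stretch of mt-Nd4 ends here, and the last and longest one of mt-Co1 starts here.
mt-Nd4 edge: TACTCCTCAGTTAGCcacatagcacttgtt
mt-Co1 edge: gtggtctaaccggaaTTGTTTTATCCAACT
The third pair holds the last 15 bases of mt-Nd4 and mt-Cytb, whose genes end in the first base of a stop codon, in capitals. The rest of that stop codon comes from the poly(A) tail, the feature by which the RNA-seq kit selects RNA.
mt-Nd4 stop: caggcctgacaataT
mt-Cytb stop: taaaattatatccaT

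RNA-seq libraries held 5083407 to 9230540 reads on genes, and CLIP-seq libraries 3404 to 4934. Among CLIP-seq replicates 1, 2 and 3 the counts varied less than sampling noise would make them (chi-square per degree of freedom 0.219 to 0.237, against 1.63 to 1.93 with replicate 5), so they were averaged and counted as 1 sample, which leaves 2. Mov10 itself had 969, 707 and 1115 reads in wild type and 235, 130 and 217 in Mov10-/- replicates 2, 3 and 4, a log2 fold change of -1.999 (SE 0.12, adjusted p = 0.00552, edgeR's quasi-likelihood test). Mov10-/- replicate 3 stood apart: 57.2% of its reads were not aligned, against 26.5% to 35.9% in the other RNA-seq libraries. The sources do not say whether same-numbered wild type and Mov10-/- testes are related, and spread between testes of a group is the only error behind the tests.

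In the counted RNA-seq reads, mitochondrial mRNAs fell into 2 sets with nothing in between. 7 of the 13 protein-coding genes (mt-Nd1, mt-Nd2, mt-Co1, mt-Nd4, mt-Nd5, mt-Nd6 and mt-Cytb) had at least 88 reads in every library, and the other 6 (mt-Co2, mt-Atp8, mt-Atp6, mt-Co3, mt-Nd3 and mt-Nd4l) had at most 5 in any. mt-Co2 and mt-Co3, core subunits of complex IV, had 1 to 3 and 0 to 5 reads. mt-Atp6 and mt-Atp8, the membrane subunits of complex V, had 0 to 1 and 0 to 3 reads, and mt-Nd3 and mt-Nd4l, small subunits of complex I, had 0 to 2 and 0 reads. Wild type and Mov10-/- libraries overlapped in all 6.

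5 of these 6 genes are copied almost whole in the nuclear genome. Of all stretches of 50 bases in each gene, the share that also occurs in an annotated nuclear transcript was 100% in mt-Co2, 99.5% in mt-Atp6, 99.9% in mt-Co3, 98.0% in mt-Nd3 and 98.8% in mt-Nd4l. It was 62.2% in mt-Nd4 and 51.1% in mt-Co1, at most 8.2% in mt-Nd2, mt-Nd5 and mt-Rnr2, and 0 in mt-Nd1, mt-Nd6, mt-Cytb and mt-Rnr1. The transcripts were pseudogenes except for mt-Rnr2, whose match Gm20594 is annotated as protein-coding. The exception is mt-Atp8, with 0% shared and 0 to 3 reads. It lies between mt-Co2 and mt-Atp6 and shares 43 bases with the latter, and no pseudogene is annotated in the matching gap of the nuclear copy. Counting took only reads with 1 place in the genome, and reads with more than 1 numbered 731035 to 1442586 per RNA-seq library. The files do not say which genes those reads came from, so what share of them was mitochondrial was not tested.

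The nuclear copies themselves were counted at low levels. 7 of them lie side by side on the minus strand of chromosome 1 (chr1:24611535-24616197, mm10) in the order of the mitochondrial genes, from Gm28439 (a copy of mt-Nd4) to Gm29216 (a copy of mt-Co1). Gm28437, the copy of mt-Co3, had 119, 121 and 105 reads in wild type replicates 1, 2 and 3 and 111, 157 and 157 in Mov10-/- replicates 2, 3 and 4, where mt-Co3 had 5, 0 and 0 and 3, 0 and 1. Gm28661, the copy of mt-Co2, had 102, 103 and 95 reads in wild type and 105, 110 and 117 in Mov10-/-, where mt-Co2 had 3, 3 and 1 and 2, 3 and 2. Both copies held more counted reads than the mitochondrial gene they resemble. From these counts, a read of a nuclear transcript and a mitochondrial read that fits the copy better cannot be told apart. All 14 annotated pseudogenes that share a stretch of 50 bases together had 632 to 755 reads in wild type and 698 to 863 in Mov10-/- libraries.

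**Figure D1:**
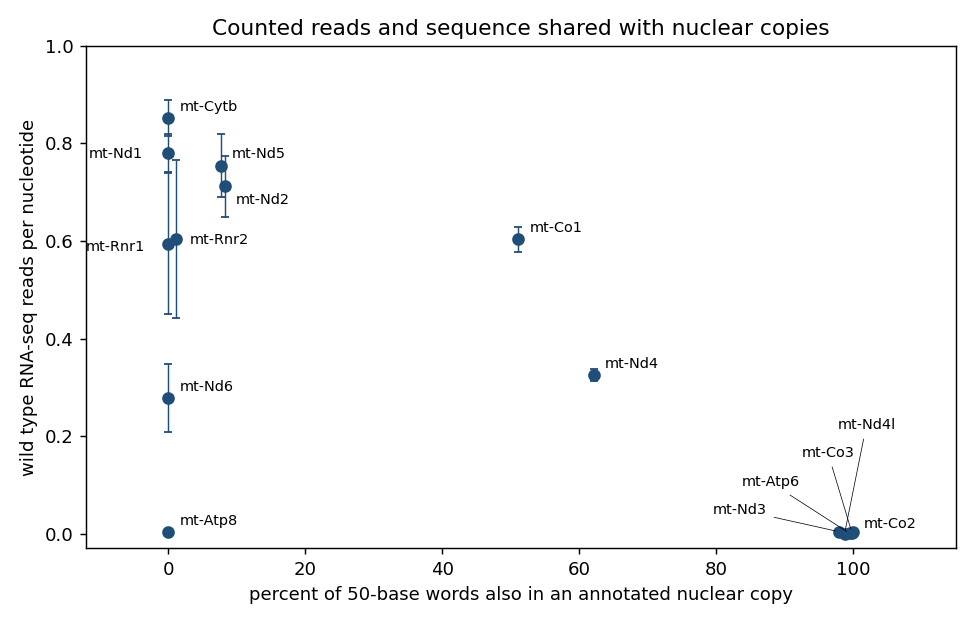
Reads per nucleotide in wild type RNA-seq (vertical axis, mean and SD of 3 libraries) against the percent of a gene's 50-base stretches that also occur in an annotated nuclear copy (horizontal axis), for the 13 protein-coding and 2 rRNA genes. mt-Co2, mt-Atp6, mt-Co3, mt-Nd3 and mt-Nd4l sit at the lower right with 98.0% to 100% shared, and mt-Atp8 sits at the lower left with 0%.

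The 7 counted mRNAs and the 2 rRNAs had similar levels per length, apart from mt-Nd6, mt-Nd4 and the rRNAs of wild type replicate 2. On the scale of reads per nucleotide of the gene, mt-Cytb (cytochrome b, the core of complex III) led with 0.872, 0.809 and 0.874 in wild type replicates 1, 2 and 3. mt-Nd1 and mt-Nd5, both of complex I, followed with 0.803, 0.735 and 0.805 and with 0.783, 0.680 and 0.800, and these 2 overlapped. mt-Nd2, also of complex I, had 0.737, 0.642 and 0.757, which overlapped with mt-Nd5. The complex IV subunit mt-Co1 had 0.605, 0.578 and 0.628. mt-Rnr1 and mt-Rnr2, the small and large rRNAs of the mitochondrial ribosome, had 0.634, 0.435 and 0.716 and 0.655, 0.424 and 0.736, and overlapped with mt-Co1. mt-Nd4 had 0.328, 0.313 and 0.336 per nucleotide of the whole gene, but 0.900, 0.859 and 0.922 per stretch of 50 bases that no annotated nuclear copy holds, beside 0.911, 0.846 and 0.913 for mt-Cytb on that scale. There mt-Co1 had 1.28, 1.22 and 1.33 and stood above mt-Cytb in each library, so the order given here did not hold on that scale. That scale depends on the length of the stretches. At 100 bases the shared part of mt-Co1 was 30.8%, against 51.1% at 50 bases, and the order at 100 bases was not tested. mt-Nd6, the one mRNA of the minus strand, was the lowest at 0.310, 0.198 and 0.326, which overlapped with mt-Nd4 only per nucleotide of the whole gene.

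Per nucleotide of the whole gene, the highest of these levels were close to a limit that held for nearly all genes. Of the 40330 genes of at least 500 nucleotides, none but C2cd6 had more than 1 read per nucleotide in any RNA-seq library, mt-Cytb ranked between 1 and 3 in each, and 4 to 7 of the first 50 genes were mitochondrial. The raw reads of the mRNAs also followed the library totals less than in proportion. Reads on all genes differed 1.82-fold between the lowest and the highest of the 6 libraries, whereas the reads of mt-Cytb differed 1.19-fold, those of mt-Nd4 1.22-fold, those of mt-Co1 1.24-fold and those of mt-Nd1 1.27-fold. The highest and lowest values differed 1.40-fold for mt-Nd2 and mt-Nd5, 1.73-fold for mt-Rnr1, 1.89-fold for mt-Rnr2 and 2.27-fold for mt-Nd6. What set this limit was not tested. On the scale of reads scaled to 1000000 reads on genes (RPM), used below, all of these mRNAs but mt-Nd6 had their highest value in Mov10-/- replicate 3, the library with the lowest total.

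The tRNAs were nearly absent from the counts. 11 of the 22 had no read in any RNA-seq library. The most counted was mt-Tw, for tryptophan, with 7, 7 and 14 reads in wild type and 15, 10 and 23 in Mov10-/- libraries. The other 10 had 0 to 9 reads per library. 8 tRNA genes lie on the minus strand, as mt-Nd6 does, and the counting does not state its use of strand, so that reads of a gene and of precursors of the opposite strand cannot be told apart.

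To ask whether loss of MOV10 altered mitochondrial transcripts, the share of gene reads on the 37 genes was compared first. It was 0.0857%, 0.0798% and 0.0814% in wild type replicates 1, 2 and 3 and 0.0986%, 0.116% and 0.0907% in Mov10-/- replicates 2, 3 and 4. All Mov10-/- libraries were above all wild type libraries, with means of 0.0823% ± 0.0030 and 0.102% ± 0.013 (SD, 3 libraries each). The two-sided exact permutation test gave p = 0.1, below which 3 libraries against 3 cannot go. Without Mov10-/- replicate 3 the difference of 0.0193 percentage points became 0.0123. In raw reads the groups overlapped: the same libraries held 7185, 6068 and 7511 mitochondrial reads in wild type and 7739, 5872 and 7279 in Mov10-/-, with means of 6921 ± 757 and 6963 ± 973 (exact permutation test, p = 0.9). The reads on genes, by which the share divides, were 8386939, 7600909 and 9230540 in wild type and 7852026, 5083407 and 8027805 in Mov10-/- libraries.

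Gene by gene, the mitochondrial transcripts were higher in RPM in Mov10-/- testes, by small amounts that did not pass the test. Across 20240 genes, edgeR's quasi-likelihood test called 1 gene at over 2-fold and an adjusted p below 0.05, namely Mov10 (0.00494% of the genes tested). 10 of the 37 mitochondrial genes passed the filter of 1 RPM in at least 3 libraries and 0 of them were called. The tRNA mt-Tw passed only through its Mov10-/- libraries and wild type replicate 3. Its place in the counts below thus follows in part from the filter and adds nothing to them. At an unadjusted p under 0.05, 3 of the 10 were higher (both rRNAs and mt-Tw), against 5.57% of all genes. DESeq2 also called 0 of the 10 at the same thresholds as edgeR, against 5.13% of all genes. All 10 fold changes were above 0, against 53.8% of all genes, with a median log2 fold change of 0.24 against 0.03. The 10 share 1 genome, precursors and library totals and are not independent. In 6 of the 10, mt-Tw among them, every Mov10-/- library exceeded every wild type library in RPM, against 10.9% of all genes. In raw reads the groups overlapped in all 10.

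The rRNAs had the larger differences among the well-counted members. mt-Rnr2 had 124, 88.1 and 126 RPM in wild type replicates 1, 2 and 3 and 161, 188 and 146 RPM in Mov10-/- replicates 2, 3 and 4. Wild type replicate 2 was the low one and Mov10-/- replicate 3 the high one, and the groups did not overlap. The log2 fold change was 0.55 (SE 0.16, 95% interval 0.18 to 0.92, adjusted p = 0.165, edgeR). DESeq2 gave an adjusted p of 0.0280 for mt-Rnr2, but the fold change was under 2. mt-Rnr1 had 72.1, 54.6 and 74.1 RPM in wild type and 91.3, 104 and 83.1 RPM in Mov10-/-, again with the same low and high libraries and no overlap, a log2 fold change of 0.47 (SE 0.15, 95% interval 0.13 to 0.81, adjusted p = 0.182, edgeR). Without Mov10-/- replicate 3 these log2 fold changes were 0.42 and 0.35. The rRNAs made up 22.8%, 17.9% and 24.6% of mitochondrial reads in wild type and 25.6%, 25.3% and 25.3% in Mov10-/-, a measure that does not use the library total (exact permutation test, p = 0.1, the smallest possible here). Within the rRNA reads, mt-Rnr1 took 36.87%, 38.25% and 37.01% in wild type and 36.2%, 35.6% and 36.2% in Mov10-/- (p = 0.1, exact permutation test).

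Reads of nuclear rRNA are given beside these values. The 3 genes Gm26917, Gm42418 and CT010467.1, which hold nuclear rRNA sequence on chromosome 17 and were chosen after their values were seen, summed to 217, 179 and 316 RPM in wild type and 360, 655 and 355 RPM in Mov10-/- libraries. They were highest in Mov10-/- replicate 3 and lowest in wild type replicate 2, as mt-Rnr2 was. In 2 of the 3 every Mov10-/- library was above every wild type library, against 10.9% of all genes. In edgeR 3 were higher at an unadjusted p under 0.05, against 5.57% of all genes, and neither edgeR nor DESeq2 called any (0 of 3). These counts follow in part from the choice of the genes by their values. Nuclear rRNA has no poly(A) tail, and its part in the mitochondrial rRNA values was not tested.

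The mRNAs differed less, with log2 fold changes of 0.21 to 0.26 and adjusted p of 0.361 to 0.593 in edgeR. mt-Nd5, the most counted, had 170, 163 and 158 RPM in wild type and 190, 210 and 173 RPM in Mov10-/- (log2 fold change 0.22, SE 0.11, 95% interval -0.04 to 0.48). mt-Nd1 had 91.6, 92.5 and 83.4 RPM in wild type and 101, 122 and 93.9 in Mov10-/- (0.24, SE 0.14, -0.08 to 0.56). mt-Nd2 had 91.2, 87.6 and 85.2 RPM in wild type and 101, 112 and 93.5 in Mov10-/- (0.21, SE 0.11, -0.05 to 0.47). In these 3 transcripts of complex I the lowest Mov10-/- library, replicate 4, lay just above the highest wild type library.

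In the other 4 the groups overlapped. mt-Cytb had 119, 122 and 108 RPM in wild type and 128, 167 and 120 in Mov10-/- (log2 fold change 0.25, SE 0.16, 95% interval -0.12 to 0.61). mt-Co1 had 111, 117 and 105 RPM in wild type and 122, 154 and 116 in Mov10-/- (0.23, SE 0.15, -0.11 to 0.57). mt-Nd4 had 53.9, 56.7 and 50.2 RPM in wild type and 58.7, 74.9 and 55.9 in Mov10-/- (0.23, SE 0.16, -0.14 to 0.61). In all 3 Mov10-/- replicate 3, the library with the fewest reads on genes, was the high one. mt-Nd6 behaved otherwise, with 19.2, 13.6 and 18.3 RPM in wild type and 25.5, 17.3 and 18.6 in Mov10-/-, where replicate 2 was the high one (0.26, SE 0.23, -0.28 to 0.80).

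**Figure D2:**
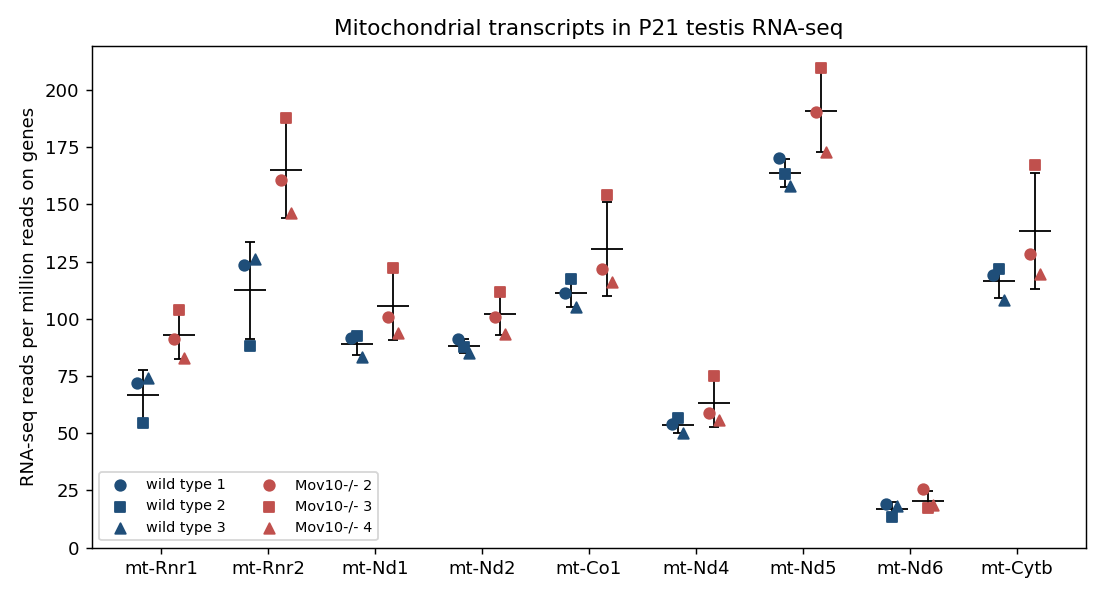
RNA-seq RPM (vertical axis) of the 9 mitochondrial genes with at least 10 reads in every RNA-seq library, for each wild type (blue) and Mov10-/- (red) library, with the mean and SD of each group as black bars. Mov10-/- replicate 3 (red squares) is the highest library for every gene but mt-Nd6, and wild type replicate 2 (blue squares) is the lowest for both rRNAs and mt-Nd6.

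The differences of the mRNAs rested on the scaling and on Mov10-/- replicate 3. Without that library the log2 fold changes of mt-Nd1, mt-Nd2, mt-Co1, mt-Nd4, mt-Nd5 and mt-Cytb fell to between 0.06 and 0.11, and only that of mt-Nd6 was higher, at 0.34. With raw reads and no scaling (chosen after seeing the data), mt-Nd1, mt-Nd2, mt-Co1, mt-Nd4, mt-Nd5 and mt-Cytb had log2 fold changes of -0.07 to -0.05 and mt-Nd6 had 0.01, while the median of all genes was -0.23. mt-Rnr1 and mt-Rnr2 had 0.17 and 0.24 on that scale. mt-Tw, with 0.83, 0.92 and 1.52 RPM in wild type and 1.91, 1.97 and 2.87 in Mov10-/-, had a log2 fold change of 1.02 (SE 0.40, 95% interval 0.11 to 1.94, adjusted p = 0.245, edgeR) and 0.77 without scaling. These values rest on 7 to 23 reads per library. They also follow in part from the filter, which mt-Tw passed through its Mov10-/- libraries and wild type replicate 3.

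**Figure D3:**
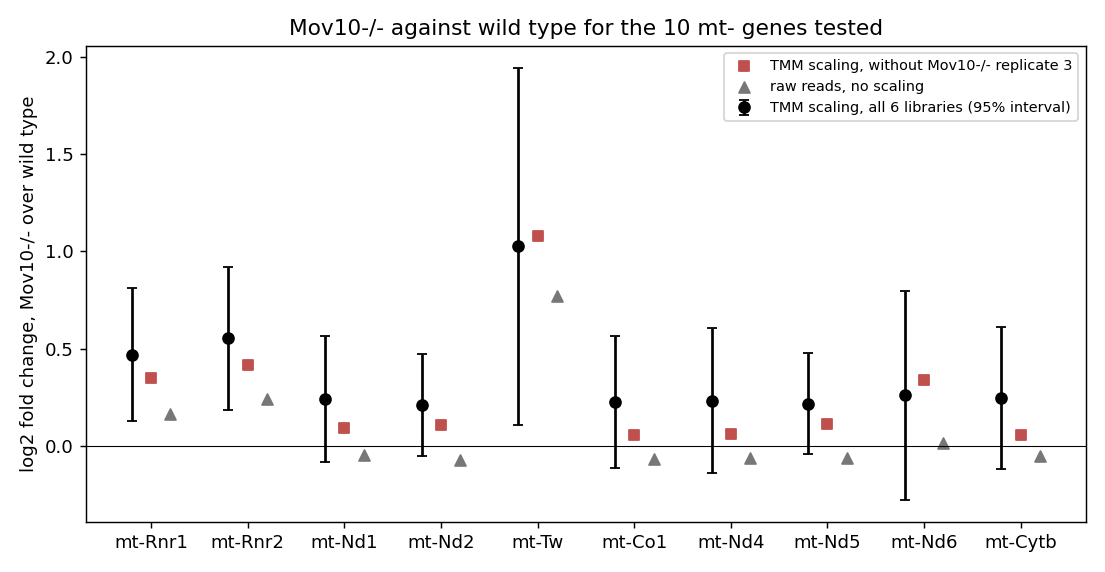
Log2 fold change of Mov10-/- over wild type (vertical axis) for the 10 mitochondrial genes tested, with all 6 libraries and TMM scaling (black, with 95% intervals), without Mov10-/- replicate 3 (red squares) and with raw reads (grey triangles). For mt-Nd1, mt-Nd2, mt-Co1, mt-Nd4, mt-Nd5 and mt-Cytb the raw values lie below 0, while those of both rRNAs and mt-Tw stay above. mt-Tw had 7 to 23 reads per library and passed the filter in part through its Mov10-/- libraries.

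**Figure D4:**
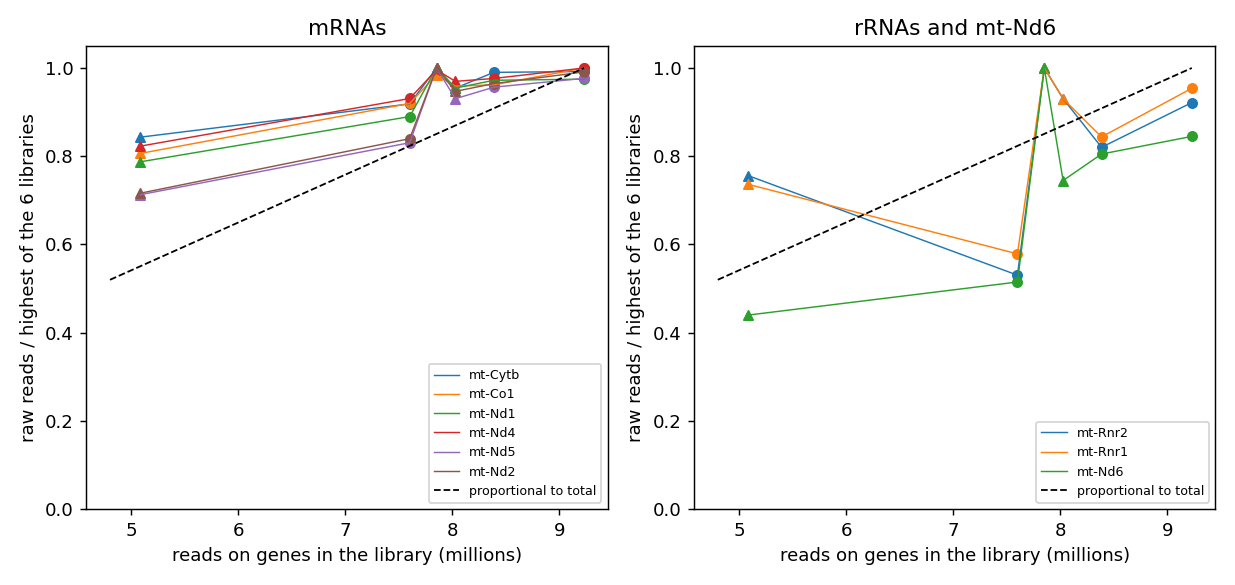
Raw reads of each gene as a part of its highest library (vertical axis) against the reads on all genes of the library in units of 1000000 (horizontal axis), for mRNAs (left) and for the rRNAs and mt-Nd6 (right), with circles for wild type, triangles for Mov10-/- and a dashed line for values in proportion to the total. In the leftmost library, Mov10-/- replicate 3, all mRNAs on the left lie above the line, mt-Cytb the furthest with 850 of 1008 reads, whereas mt-Nd6 lies below it.

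The nuclear genes of the same pathways gave 0 calls in edgeR in each of the lists used. For the subunits of complexes I to V, 76 of 79 were tested, 0 had an unadjusted p under 0.05, and the median log2 fold change was 0.10 (-0.01 without Mov10-/- replicate 3). In 12 of the 76 every Mov10-/- library was above every wild type library and in 1 below, against 10.9% and 15.3% of all genes. All of them together summed to 3246 to 3300 RPM in wild type and 3321 to 3860 RPM in Mov10-/-, without overlap. The sums of complexes IV (332 to 338 and 353 to 419 RPM) and V (763 to 775 and 795 to 910 RPM) did not overlap either, while those of complexes I (1448 to 1473 and 1439 to 1692 RPM), II and III did. Cyc1, cytochrome c1 of complex III, had 63.9, 54.6 and 65.1 RPM in wild type and 71.8, 90.5 and 69.8 in Mov10-/- (log2 fold change 0.34, SE 0.15, adjusted p = 0.293, edgeR), and Cox6a1 of complex IV had a log2 fold change of 0.40 (SE 0.19, adjusted p = 0.322, edgeR). In both, as in the mitochondrial mRNAs other than mt-Nd6, Mov10-/- replicate 3 was the high library. Atp5e of complex V had 0.39 (SE 0.17, adjusted p = 0.297) and Ndufs7 of complex I 0.40 (SE 0.20, adjusted p = 0.342). Sdhb of complex II, which has no mitochondrial subunit, had 0.15 (SE 0.14, adjusted p = 0.632).

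Factors that act on mitochondrial DNA and RNA were lower at an unadjusted p under 0.05 about as often as all genes. The genes named here had the lowest p-values of their lists, and all were lower. Of 17 genes of transcription and replication, 2 were lower and 0 higher at an unadjusted p under 0.05, against 11.9% and 5.57% of all genes, and the median log2 fold change was -0.01. Tfb1m, which methylates mt-Rnr1, had 41.0, 53.5 and 40.8 RPM in wild type and 30.82, 24.98 and 32.26 in Mov10-/- (log2 fold change -0.63, SE 0.18, adjusted p = 0.164, edgeR). Mterf3, which represses transcription of the mitochondrial genome, had 61.3, 81.2 and 71.8 RPM in wild type and 54.1, 45.4 and 57.4 in Mov10-/- (-0.46, SE 0.15, adjusted p = 0.190). In both the groups did not overlap, and 3 of the 17 lay below in this way and 1 above, against 15.3% and 10.9% of all genes. Of 28 tested genes of RNA processing, tails and decay, 3 were lower and 0 higher at that p, with a median of -0.01. Nsun4, a methyltransferase of mt-Rnr1 that also serves ribosome assembly, had 71.1, 154 and 55.7 RPM in wild type and 39.2, 47.8 and 41.6 in Mov10-/- (-1.14, SE 0.37, adjusted p = 0.190), and without wild type replicate 2, its high library, the log2 fold change was -0.54. DESeq2 called Nsun4 lower (adjusted p = 0.0366), 1 of the 28 genes, against 4.88% of all genes called lower. Fastkd2, which binds mt-Rnr2, had -0.32 (SE 0.12, adjusted p = 0.222).

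Proteins of the mitochondrial ribosome were tested in 75 of 78 cases. Of these, 1 was higher (Mrpl17, 0.28, SE 0.12, adjusted p = 0.268) and 1 lower (Mrpl1, -0.29, SE 0.11, adjusted p = 0.235) at an unadjusted p under 0.05, against 5.57% and 11.9% of all genes. The median log2 fold change was 0.09. Of 17 tested mitochondrial aminoacyl-tRNA synthetases, which charge the tRNAs, 1 was higher (Lars2, for leucine, 0.47, SE 0.17, adjusted p = 0.218) and 0 lower at that p. Of 6 regulators of mitochondrial biogenesis, 2 were lower at that p: the coactivator Ppargc1a had 14.0, 14.6 and 15.6 RPM in wild type and 7.13, 9.44 and 10.8 in Mov10-/- (-0.69, SE 0.26, adjusted p = 0.237), and its relative Ppargc1b had 2.86, 3.68 and 3.14 RPM in wild type and 1.15, 0.787 and 1.87 in Mov10-/- (-1.32, SE 0.40, adjusted p = 0.172). The groups did not overlap in either, so 2 of the 6 lay below throughout and 0 above, against 15.3% and 10.9% of all genes. Over the 6 the median log2 fold change was 0.10. Their sums overlapped, with 312 to 380 RPM in wild type and 375 to 394 RPM in Mov10-/-.

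Markers of several cell types differed in summed level between the groups, and edgeR called 0 genes in each of these lists, and their part in the mitochondrial values was not tested. In RNA from whole testes, fewer cells of a type and less RNA per cell cannot be told apart. The 20 spermatid markers summed to 398 to 1530 RPM in wild type and 109 to 316 RPM in Mov10-/-, with 18 of 19 tested lower at an unadjusted p under 0.05 (11.9% of all genes) and 15 called lower by DESeq2 (4.88% of all genes). The 16 spermatocyte markers overlapped, with 2015 to 2139 RPM in wild type and 1886 to 2325 RPM in Mov10-/-. The 12 Sertoli markers summed to 839 to 998 RPM and 1071 to 1224 RPM, with 7 of 11 tested above wild type in every Mov10-/- library (10.9% of all genes). The adipocyte markers summed to 70.9 to 79.5 RPM and 119 to 161 RPM, with 5 of 9 above and 4 called higher by DESeq2 (0.252% of all genes), and the skeletal muscle markers to 72.4 to 91.9 RPM and 99.9 to 153 RPM, with 3 of 8 above. The spermatogonia, Leydig, peritubular and endothelial, and macrophage lists had medians of 0.23 to 0.33. Of these, only the peritubular and endothelial sums did not overlap, with 445 to 532 RPM in wild type and 579 to 723 RPM in Mov10-/- and 3 of 10 above. No marker of these lists was at 0 in all RNA-seq libraries.

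In MOV10 CLIP-seq, mitochondrial transcripts took a larger share of the gene reads than in RNA-seq, in all libraries. The share was 2.43% (96 of 3948 reads), 2.28% (78 of 3424), 2.47% (84 of 3404) and 2.57% (127 of 4934) in replicates 1, 2, 3 and 5, with Wilson 95% intervals between 1.83% and 3.05%. Counting replicates 1, 2 and 3 as 1, the mean was 2.48% ± 0.13 (SD, n = 2) against 0.0823% ± 0.0030 in wild type RNA-seq (n = 3), 30.2-fold higher (p = 0.2 by a two-sided exact permutation test, below which 2 samples against 3 cannot go). In all reads placed on the genome the shares were 0.221% to 0.453% in CLIP-seq and 0.0571% to 0.0619% in wild type RNA-seq, since 81.3% to 90.4% of placed CLIP-seq reads lay outside genes. The files list 99.5% to 99.6% of CLIP-seq reads as not aligned. The paper found MOV10 in the cytoplasm of testis cells, whereas these transcripts are made inside the organelle. Without a control antibody, RNA bound by MOV10 and background cannot be told apart. For comparison, the nuclear subunits of complexes I to V had 19 reads over the 4 libraries, on 8 of 79 genes, and their summed CLIP-seq RPM was 0.42 of that in wild type RNA-seq, where the mitochondrial mRNAs were 13.7-fold and the mitochondrial rRNAs 88.3-fold higher. Of the RNA-seq levels behind these folds, and behind the ratios and splits below, some lay close to the limit per nucleotide described above. In wild type, mt-Nd5 had 0.680 to 0.800 reads per nucleotide, the rRNAs 0.424 to 0.736, mt-Co1 0.578 to 0.628 and mt-Nd6 0.198 to 0.326. Raw reads of mt-Rnr1, mt-Rnr2 and mt-Nd6 differed 1.73-fold, 1.89-fold and 2.27-fold between RNA-seq libraries, against 1.82-fold for reads on all genes. The mRNAs copied almost whole in the nuclear genome were also barely counted. How far this moved the folds, ratios and splits was not tested.

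The mitochondrial CLIP-seq reads were concentrated on 4 transcripts. mt-Rnr2 had 42, 35, 39 and 52 reads in replicates 1, 2, 3 and 5, that is 10638, 10222, 11457 and 10539 RPM, and so varied least. mt-Rnr1 had 6, 5, 5 and 44 reads. mt-Nd5 had 28, 22, 24 and 10 reads, and mt-Nd6 had 15, 12, 12 and 7. Replicate 5 was thus high for mt-Rnr1 and low for mt-Nd5 and mt-Nd6, while it matched the others for mt-Rnr2. mt-Co1 had 2, 1, 2 and 11 reads, with replicate 5 the high one again.

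mt-Cytb, mt-Nd1, mt-Nd2 and mt-Nd4 had at most 1 CLIP-seq read per library. Their mean RNA-seq levels in wild type were 116, 89.2, 88.0 and 53.6 RPM, between those of mt-Nd6 (17.02 RPM) and mt-Nd5 (164 RPM). In CLIP-seq, 1 read makes 203 to 294 RPM, so fewer than 1 read per library would be due at these levels. These counts thus cannot show a share below that in RNA-seq. mt-Cytb had 1 read in each replicate, mt-Nd2 had 0, 1, 0 and 1, mt-Nd4 had 1, 1, 0 and 0, and mt-Nd1 had none. A count of 0 still allows 3 reads, that is 608 to 881 RPM per library. 27 of the 37 genes, among them 20 tRNAs and 7 mRNAs, had no CLIP-seq read in any library, and 6 of these 7 mRNAs also had at most 5 RNA-seq reads in any library. Libraries of 3404 to 4934 reads on genes leave most of the 55421 genes without a read as well. The tRNAs mt-Tp and mt-Tv had 2 and 1 in all. The nuclear copies had 7 reads in all, on 3 of the 14 genes, so that the CLIP-seq reads of mt-Nd5 had no counterpart there: Gm4076 and Gm11407, the copies that share a stretch with mt-Nd5, had 0.

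**Figure D5:**
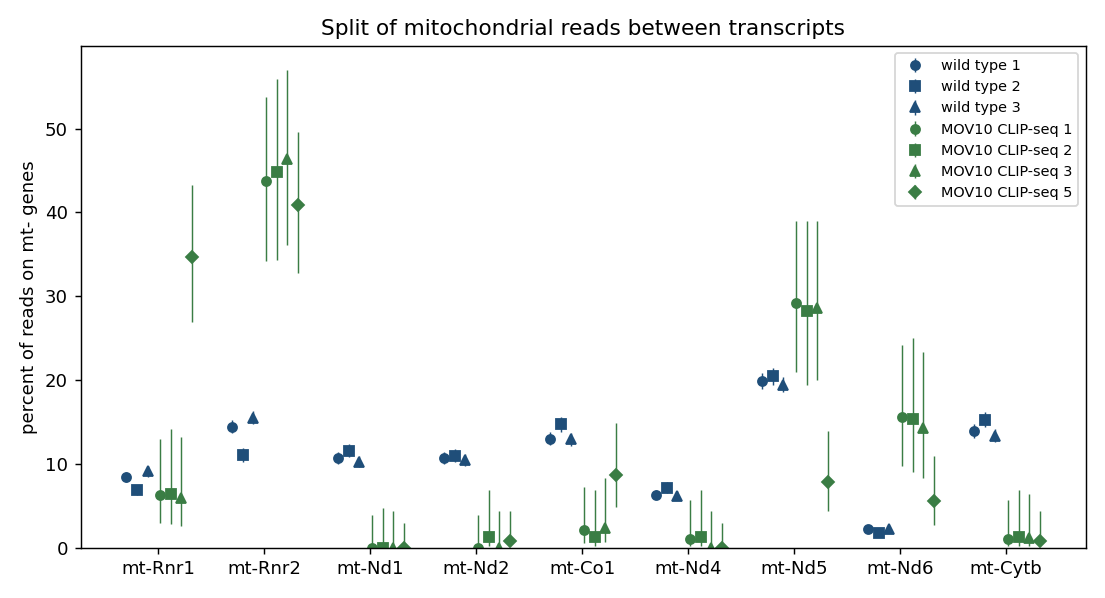
Percent of all reads on mitochondrial genes (vertical axis, with Wilson 95% intervals) taken by each of the 9 well-counted genes, in wild type RNA-seq (blue) and MOV10 CLIP-seq (green). mt-Rnr2 and mt-Nd6 are higher in all CLIP-seq libraries, mt-Nd1, mt-Nd2, mt-Nd4 and mt-Cytb are lower, and CLIP-seq replicate 5 (diamonds) leaves the others at mt-Rnr1, mt-Co1, mt-Nd5 and mt-Nd6.

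The split between mitochondrial transcripts needs no library total, so it was compared on its own. mt-Nd5 and mt-Nd6, whose ends overlap as printed above, held 91.5% (43 of 47), 89.5% (34 of 38) and 92.3% (36 of 39) of the CLIP-seq reads on mitochondrial mRNAs in replicates 1, 2 and 3, and 56.7% (17 of 30; Wilson 95% interval 39.2% to 72.6%) in replicate 5. In wild type RNA-seq they held 28.8%, 27.1% and 29.0%, and in Mov10-/- RNA-seq 29.7%, 26.4% and 28.5%. Every CLIP-seq library was above every RNA-seq library, also by its interval (mean of 73.9% ± 24.3, n = 2, against 28.3% ± 1.1, n = 3; exact permutation test, p = 0.2, the smallest possible). The rRNAs held 50%, 51.3%, 52.4% and 75.6% of the mitochondrial reads in CLIP-seq, against 17.9% to 24.6% in wild type RNA-seq (exact permutation test, p = 0.2). mt-Rnr1 took 12.5%, 12.5%, 11.4% and 45.8% of the rRNA reads, below the 36.9% to 38.2% of wild type RNA-seq in replicates 1, 2 and 3 and above it in replicate 5 (p = 0.8, exact permutation test), so that no direction held for it.

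When CLIP-seq RPM was divided by the mean RPM of wild type RNA-seq, mt-Nd6 had the highest value among the well-counted members, 148, from the lowest RNA-seq level (17.02 ± 3.04 RPM, SD, n = 3). The counting interval of the CLIP-seq reads alone was 84.2 to 213. It belongs to the ratio with both libraries pooled, which was 138. The brackets that follow are also those of pooled ratios. These were 94.4 for mt-Rnr2, 86.4 for mt-Rnr1, 24.8 for mt-Nd5, 13.3 for mt-Co1, 2.02 for mt-Cytb, 1.78 for mt-Nd2 and 1.46 for mt-Nd4. mt-Rnr2 had 94.6 (76.0 to 116), mt-Rnr1 77.7 (64.0 to 114), mt-Nd5 27.1 (17.2 to 34.6) and mt-Co1 12.1 (7.04 to 23.0). mt-Cytb had 2.07 (0.244 to 7.28), mt-Nd2 1.70 (0.0986 to 8.18) and mt-Nd4 1.70 (0.00744 to 10.9), and for mt-Nd1 a count of 3 over both libraries would give 3.95. The counting intervals of mt-Nd5, mt-Nd6 and both rRNAs thus lie above those of these 4 mRNAs. The intervals of mt-Nd6, mt-Rnr2 and mt-Rnr1 overlap, so no order between them can be given. Between replicates the ratio of mt-Rnr1 was 22.2 on the mean of replicates 1, 2 and 3 and 133 in replicate 5, that of mt-Nd5 41.8 and 12.4, that of mt-Nd6 212 and 83.4, that of mt-Co1 4.15 and 20.02, and that of mt-Rnr2 95.7 and 93.6. Over Mov10-/- RNA-seq the ratios were 123 for mt-Nd6, 64.6 for mt-Rnr2, 56.1 for mt-Rnr1, 23.3 for mt-Nd5 and 10.3 for mt-Co1. RNA-seq selected RNA by its poly(A) tail and CLIP-seq did not. What this selection did to the RNA-seq levels of mt-Nd6 and the rRNAs was not tested.

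The test of these ratios says little about mitochondrial genes in particular. 82 genes had at least 10 reads in both assays, and edgeR's quasi-likelihood test called all of them higher in CLIP-seq (100% of the genes tested), the 5 mitochondrial ones included. A gene needs many reads in a CLIP-seq library of at most 4934 to be tested at all, and its ratio is then high: 64.6% of the 82 had a ratio above 10 and the median log2 ratio was 3.72. By log2 ratio mt-Nd6 ranked 10 of 82 (7.15, SE 0.84), mt-Rnr2 11 (6.56, SE 0.32), mt-Rnr1 12 (6.37, SE 0.55), mt-Nd5 19 (4.67, SE 0.45) and mt-Co1 42 (3.71, SE 0.67), which places mt-Co1 at the median. With TMM scaling across both assays, mt-Nd5 and mt-Co1 had log2 ratios of 1.00 (adjusted p = 0.0756, edgeR) and 0.07 (adjusted p = 0.926) and were no longer called, while mt-Nd6 and both rRNAs were. With all placed reads as totals, mt-Co1 had 1.34 (adjusted p = 0.0938) and was not called. Without CLIP-seq replicate 5, mt-Rnr1 and mt-Co1 had too few reads to be tested. The log2 ratios of mt-Rnr2, mt-Nd5 and mt-Nd6 were then 6.58, 5.39 and 7.73. The nuclear rRNA genes on chromosome 17 had 449 reads over the 4 CLIP-seq libraries, with a summed ratio of 119, above the 88.3 of the mitochondrial rRNAs.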

How the data were processed

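10 libraries of P21 testes were used, each with 1 deposited table of raw read counts by Ensembl gene. For RNA-seq they trimmed adapters, mapped to mm10 with STAR and counted with htseq-count on Ensembl v99. The strand setting is not given in the sources used here. Genes were named with GENCODE vM21 (GRCm38), which matched 55240 of 55421. The 37 genes, the gene lists and the alternatives were chosen with earlier results of these data known.

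RPM was computed over reads on genes. Genotypes were compared on counts with edgeR 4.0.16 (TMM, quasi-likelihood test, Benjamini-Hochberg over all 20240 genes that exceeded 1 RPM in 3 or more of the 6) in R 4.3.3, and called at over 2-fold and an adjusted p below 0.05. Intervals use the t quantile that matches the test's p. CLIP-seq replicates 1, 2 and 3 were averaged. CLIP-seq was tested against wild type RNA-seq the same way, scaled by library totals, on genes with 10 or more reads in both assays. Alternatives were DESeq2 1.42.0, limma 3.58.1 (voom), other edgeR tests, scalings and filters, a replicate block and each replicate left out. Shares were compared by exact permutation tests over libraries (SciPy, Python 3.11.15), with Wilson intervals at 95%. Intervals and floors (3 reads for a count of 0) cover counting error only.

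Genes with values in every library had at least 10 reads in every RNA-seq library or 10 over the 4 CLIP-seq libraries. Of each pathway list, the called genes were to be named, else the 2 with the lowest p. Those of cytochrome c (Cycs and Cyct) and the tissue isoforms of complex IV (Cox4i2 and Cox7a1) had adjusted p of 0.503 to 0.745 in edgeR, and the 9 tested nuclear copies had 0 calls and a median log2 fold change of 0.46. The scripts were tested on simulated data. Shared stretches were found by exact matches of 50 bases between annotated transcripts, in either orientation, so unannotated nuclear copies were not searched.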

Additional observations from a re-analysis of the deposited data

Results flagged for a closer look

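CLIP-seq replicate 5 stood far from the other 3 CLIP-seq libraries in 8 of the 10 mitochondrial quantities examined for such a gap. Chance sets about 1 in 20 groups of independent libraries apart in this way, a rate that does not apply here because replicates 1, 2 and 3 differed by less than the sampling noise and counted as 1 sample. These are thus 1 pattern seen 8 times: the gap between 2 samples. In RPM, mt-Rnr1 was at 8918 in replicate 5 and at 1460 to 1520 in the others, and mt-Co1 at 2229 and at 292 to 588. mt-Nd5 was at 2027 in replicate 5 and at 6425 to 7092 in the others, and mt-Nd6 at 1419 and at 3505 to 3799. Mitochondrial mRNAs held 0.608% of gene reads in replicate 5 and 1.11% to 1.19% in the others, and mitochondrial rRNAs 1.95% and 1.17% to 1.29%. The share of mt-Nd5 and mt-Nd6 in the mitochondrial mRNA reads was 56.7% against 89.5% to 92.3%, and that of mt-Rnr1 in the mitochondrial rRNA reads 45.8% against 11.4% to 12.5%. mt-Rnr2 and the share of all mitochondrial genes were not set apart. The paper describes CLIP-seq libraries made from the main band of MOV10 with its RNA and from a higher position on the membrane. The labels give no difference between the CLIP-seq libraries and do not say which position each came from. The cause was not tested.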

How the results depend on the processing

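No mitochondrial gene was called between genotypes under any alternative. The genes called lower and higher over all genes were 1 and 0, but 988 and 51 with DESeq2, 1031 and 70 with edgeR's exact test, 1104 and 83 with its likelihood ratio test, 3 and 3 with library totals alone, 5 and 5 with no filter but 1 read, and 1505 and 34 with raw reads (chosen after seeing the data). limma voom called 1 higher. Leaving out a replicate gave 0 to 1 lower, with 0 without Mov10-/- replicate 3 or replicate 4. With a replicate block they were 145 and 36; only numbers 2 and 3 occur in both groups, same-numbered samples correlated at -0.48 and -0.35, and the numbers were not taken as pairs. With raw reads 6 log2 fold changes reversed: -0.049 for mt-Nd1, -0.070 for mt-Nd2, -0.068 for mt-Co1, -0.060 for mt-Nd4, -0.064 for mt-Nd5 and -0.052 for mt-Cytb.

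The 82 genes called higher in CLIP-seq became 14 with TMM (and 9 lower), 38 with all placed reads as totals, 261 with 4 separate CLIP-seq libraries, 469 at a minimum of 1 read, 255 with a replicate block, and 19 to 82 with a replicate left out (42 without replicates 1, 2 and 3, 19 without replicate 5, where fewer genes were tested). The mitochondrial genes called were 5, also with any wild type replicate left out, but 3 with TMM, 4 with all placed reads as totals and 6 at a minimum of 1 read. With a CLIP-seq sample left out, fewer of them had enough reads to be tested. The difference in mitochondrial share kept its direction throughout, at 0.0112 to 0.0247 percentage points between genotypes and at 0.285 to 2.49 for CLIP-seq. The CLIP-seq depth limits all ratios.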
